A study of Homo sapiens with 9 samples.

Results

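Open chromatin was described at *IRF1*, *IRF2*, *IRF4* and *IRF8*, 4 genes of the interferon regulatory factor (IRF) family, in Jurkat cells, which are a clone of a human T cell leukaemia line. FAIRE-seq (formaldehyde-assisted isolation of regulatory elements with sequencing), which enriches DNA free of nucleosomes, was performed with 1 library per state. The states of the series were NS (non-stimulated), ST (stimulated), SW (stimulus withdrawal) and RS (re-stimulated). Each state followed pre-treatment with DMSO, the vehicle, or with 15 μM rottlerin, an inhibitor of protein kinase C. According to the study, the stimulus was the phorbol ester PMA with a calcium ionophore. By the labels, stimulation lasted 4 h, rest 1 day and re-stimulation 2 h, with a total input library as the reference, and the methods of the study give a shorter stimulation. Peak lists of 4 of the 9 samples were used, and the other 5 were not analysed here. Overlapping or touching peaks of the 4 lists were joined into 40703 regions on the autosomes, X and Y, and a region belonged to a gene if it lay in the gene body or within 75 kb of its transcription start site (TSS). This rule gave 29 regions, of which 10 were at *IRF1*, 6 at *IRF2*, 9 at *IRF4* and 4 at *IRF8*. The genes were selected on peak presence and fold enrichment in these same lists, after an *IRF4* region without an NS peak had been seen, so presence and absence at *IRF4* are given as a description.

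IRF proteins bind repeats of the half-site GAAA. A pair of half-sites makes the interferon-stimulated response element (ISRE), and interferons, acting through JAK kinases and STAT factors, induce several family members. IRF1 activates interferon-responsive and antigen-presentation genes, and IRF2 occupies the same sites and often opposes it. IRF4 is induced by antigen receptor signalling in lymphocytes and binds with BATF and JUN proteins or with ETS factors of the PU.1 type at composite sites, whereas IRF8, its closest relative, is best known in myeloid and B cells.

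The labels and the methods of the study differ on which cells 3 of the lists describe. By label, the lists belong to NS and SW cells given DMSO and to NS and SW cells given rottlerin, whereas the methods describe peaks called on the DMSO samples of all 4 states. The number of merged regions given there is the one obtained when every peak of the present lists is joined. That number was 40731 before regions on other contigs were removed. Each list is therefore called "the list labelled" with its label, no direction between states or drugs is drawn from the 3 lists in question, and the list labelled NS DMSO rests on a label that nothing contradicts. The lists labelled NS DMSO, SW DMSO, NS rottlerin and SW rottlerin, the order in which values are given below, held 18977, 20132, 23835 and 30409 peaks. Their median fold enrichment over total input was 4.05, 4.03, 4.08 and 4.03. With 1 library per list there is no spread between replicates and no test, and read depth is unknown, so a region without a peak is one that was not called at that library's depth. Of the T cell markers, *CD3D*, *CD3E* and *CD28* had a TSS peak in all 4 lists, *CD3G*, *ZAP70*, *LAT* and *CD247* had one in 1 to 3 lists, and *CD2* and *LCK* had none, while none of 4 B cell, 5 myeloid and 2 erythroid markers had a TSS peak in any list.

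The sequences shown first are those of the regions on which the results turn, namely the TSS regions of *IRF1* and *IRF2* and the 4 regions with a peak in every list but NS DMSO. They were read from GRCh37 on the strand of the gene, 5′ to 3′, with untranslated sequence left out and at most 300 bases each. Capitals mark matches, on either strand, to an ISRE (2 GAAA half-sites with 2 bases between them), an ETS-IRF composite (GGAA and GAAA with 2 bases between them), or one of 8 single motifs. Of these, the AP1 letters were TGANTCA, where N was cytosine or guanine, and those of GAS, the element bound by STAT dimers, were TTCNNNGAA. NFAT was sought as the motif GGAAAA, and NFκB was sought as the motif GGNNTTTCC. The lineage factors were sought by CCGGAA and also the motif CAGGAA for the ETS family, by TGTGGT for the RUNX family, by AGATAA and also the motif TGATAA for the GATA family, and by CACCTG for the E-box proteins. A base may belong to more than 1 match, and an AP1 site with a half-site 0 or 4 bases away was sought as well. The TSS region of *IRF1*, with chr5:131826470-131826712 shown (minus strand), holds a GAS. That of *IRF2*, with chr4:185395713-185396012 shown (minus strand), holds an ETS-IRF composite whose GAAA opens an ISRE, then a GAS that overlaps an NFAT match, and further down an NFκB match. This NFκB match lies outside the central 300 bp of the region, on which the motif counts below rest, and is not counted there.
IRF1 TSS region: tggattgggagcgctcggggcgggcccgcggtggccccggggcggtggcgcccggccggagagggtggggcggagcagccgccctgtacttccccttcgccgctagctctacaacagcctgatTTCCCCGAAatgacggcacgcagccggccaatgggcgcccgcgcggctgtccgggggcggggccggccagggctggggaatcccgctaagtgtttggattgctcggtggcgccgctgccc
IRF2 TSS region: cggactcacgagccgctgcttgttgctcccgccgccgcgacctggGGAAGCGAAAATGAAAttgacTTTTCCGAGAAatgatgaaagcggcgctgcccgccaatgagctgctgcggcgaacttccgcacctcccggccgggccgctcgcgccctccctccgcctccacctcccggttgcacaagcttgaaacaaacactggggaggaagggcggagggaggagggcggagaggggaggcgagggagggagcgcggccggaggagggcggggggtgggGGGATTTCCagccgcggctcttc

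The *IRF4* regions with a peak in every list but NS DMSO lie 55.2 kb (chr6:446812-447111 shown) and 13.4 kb (chr6:404968-405267 shown) downstream of the TSS, both on the plus strand. The capitals are an AP1 and an NFκB match in the former, and E-box, NFκB, ETS and NFAT matches in the latter. In the latter, the ETS and NFAT matches lie outside the peak of the list labelled NS rottlerin.
IRF4 55.2 kb downstream: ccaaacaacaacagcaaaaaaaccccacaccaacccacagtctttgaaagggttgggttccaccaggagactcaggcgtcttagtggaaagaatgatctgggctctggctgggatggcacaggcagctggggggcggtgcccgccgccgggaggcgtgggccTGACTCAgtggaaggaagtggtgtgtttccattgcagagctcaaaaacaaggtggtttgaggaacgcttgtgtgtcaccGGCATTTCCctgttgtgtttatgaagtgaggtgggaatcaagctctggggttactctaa
IRF4 13.4 kb downstream: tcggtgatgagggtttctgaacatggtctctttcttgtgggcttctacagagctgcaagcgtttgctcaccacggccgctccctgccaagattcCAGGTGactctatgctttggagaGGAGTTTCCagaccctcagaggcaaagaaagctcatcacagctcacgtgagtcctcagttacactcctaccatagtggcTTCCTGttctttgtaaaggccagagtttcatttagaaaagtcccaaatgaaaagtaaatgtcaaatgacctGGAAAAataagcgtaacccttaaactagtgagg

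Those of *IRF1* lie 5.4 kb upstream (chr5:131831717-131832016 shown) and 17.6 kb downstream (chr5:131808741-131809040 shown), both on the minus strand. The former holds a GAS that overlaps an ETS match, another ETS match and an E-box, and the latter an E-box directly followed by a GATA match. In the former, the E-box and the separate ETS match lie outside the peak of the list labelled SW DMSO, and the GAS crosses its edge. In the latter, both matches lie only in the peak of the list labelled NS rottlerin.
IRF1 5.4 kb upstream: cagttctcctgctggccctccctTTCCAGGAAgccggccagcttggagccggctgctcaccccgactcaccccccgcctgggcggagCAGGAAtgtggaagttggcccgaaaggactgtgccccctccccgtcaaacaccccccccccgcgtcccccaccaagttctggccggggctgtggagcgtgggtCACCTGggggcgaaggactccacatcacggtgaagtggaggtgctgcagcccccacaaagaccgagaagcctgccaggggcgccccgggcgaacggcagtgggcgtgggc
IRF1 17.6 kb downstream: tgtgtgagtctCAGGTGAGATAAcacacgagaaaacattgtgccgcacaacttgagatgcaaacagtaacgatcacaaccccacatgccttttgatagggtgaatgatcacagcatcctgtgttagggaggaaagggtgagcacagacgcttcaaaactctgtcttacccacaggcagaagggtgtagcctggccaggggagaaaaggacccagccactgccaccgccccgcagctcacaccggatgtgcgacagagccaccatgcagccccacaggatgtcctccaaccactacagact

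Of the 29 regions, 20 (69%) had no peak in the list labelled NS DMSO, beside 53.5% of all regions. A peak in every list but NS DMSO was found in 4 regions (13.8%), beside 7.08% of all regions. Peaks in all 4 lists were found in 5 (17.2%), beside 26.6%, and a peak in the NS DMSO list alone in 1 (3.45%), beside 7.83%. With so few regions each share moves by several percentage points with a single region, and since the genes were chosen for a region of this kind the shares support nothing beyond these loci. By list, a peak was present in 9, 16, 17 and 22 of the 29 regions (31%, 55.2%, 58.6% and 75.9%), beside 46.5%, 49.3%, 58.4% and 74.5% of all regions. The NS DMSO list is the shortest. When every list was limited to its 18977 highest-scoring peaks, 12 of 21 regions at the IRF genes (57.1%) had no NS DMSO peak, beside 41.5% of all regions, and 2 of 21 (9.52%) had a peak in every other list, beside 5.66%.

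**Figure D1:**
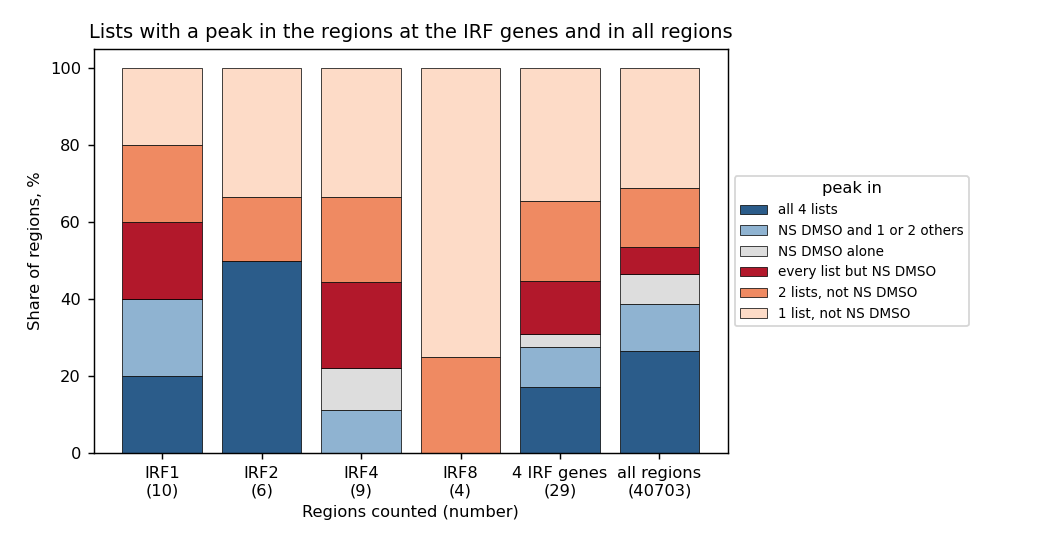
Share of regions (%, vertical axis) by the lists in which they have a peak, for each IRF gene, the 4 genes together and all regions, with the number of regions under each bar. *IRF2* had 3 of 6 regions in all 4 lists, whereas *IRF4* and *IRF8* had none, and *IRF4* and *IRF1* had 2 regions each with a peak in every list but NS DMSO.

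The 4 loci differed in where their open chromatin lay. *IRF1* and *IRF2* had a peak at the TSS in all 4 lists, as had 31.8% of 20163 protein-coding genes, whereas *IRF4* and *IRF8* had no peak within 1 kb of the TSS in any list, as had 52.7%. *IRF8* had no NS DMSO peak in its window at all. Over protein-coding genes with the same window rule, 12.4% had as many regions as *IRF4* or more, and 3.46% had as many without an NS DMSO peak. The latter rests on 7 *IRF4* regions, which were 4 when the lists were limited to equal length, and the share over genes was not recomputed for that setting. The corresponding shares were 8.55% and 6.06% for *IRF1*, 33.7% and 32.8% for *IRF2*, and 55.5% and 19.1% for *IRF8*. Of the 29 regions, 18 had the IRF gene as the nearest protein-coding TSS and 11 another gene, and 17 had their mid-point in an intron, 4 in an exon, 4 within 10 kb before a TSS, 3 in intergenic sequence and 1 in a 5′UTR.

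**Figure D2:**
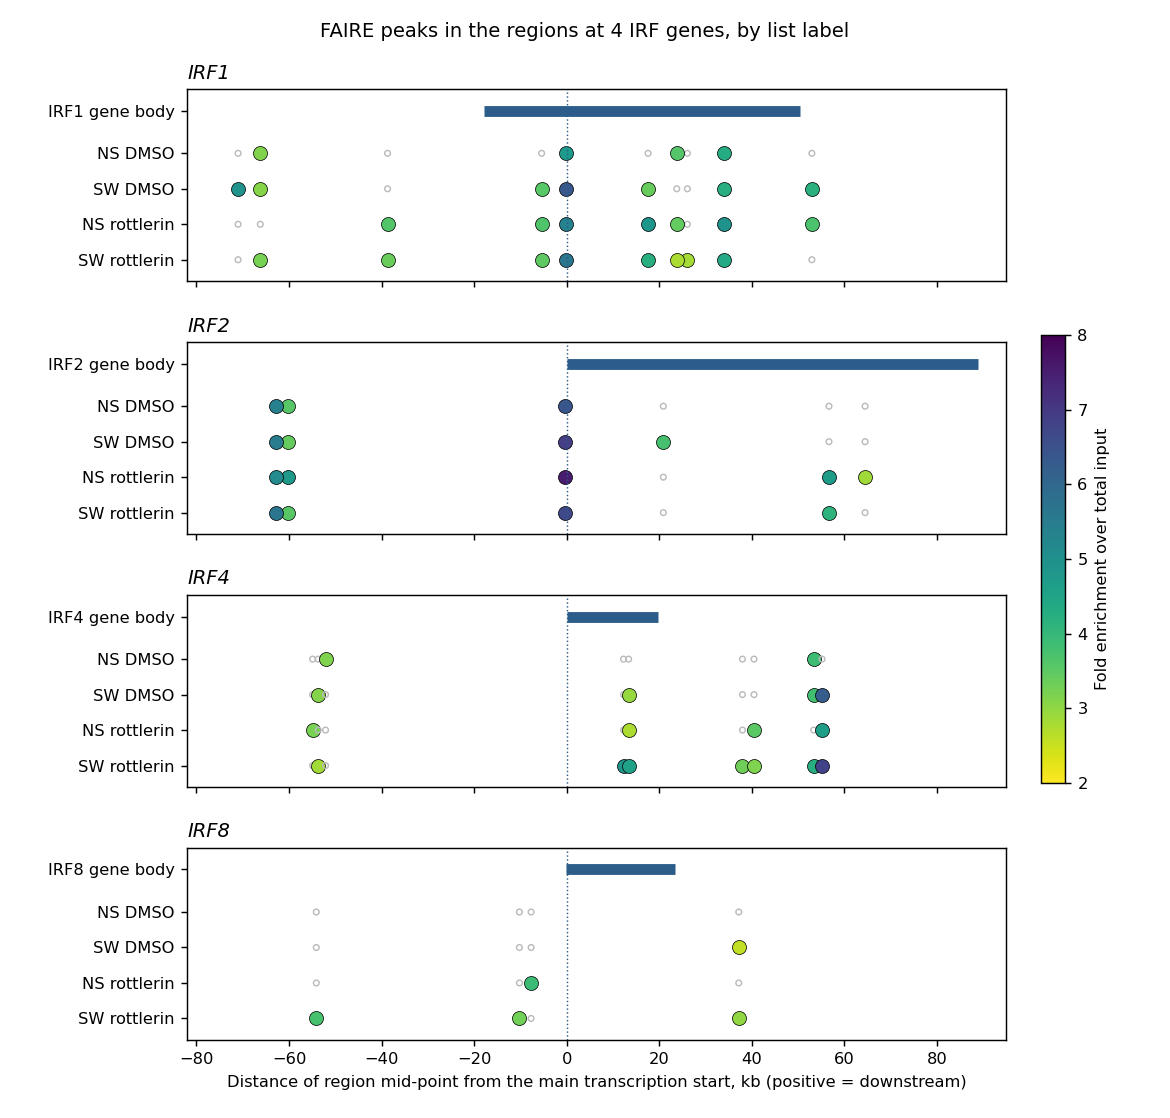
Peaks at the 4 loci by list label (rows), against the distance of each region's mid-point from the start of the main transcript in kb (horizontal axis, positive downstream). Filled circles are peaks coloured by fold enrichment over total input, small open circles are regions without a peak in that list, bars are gene bodies and dotted lines the main TSS, where *IRF1* and *IRF2* but not *IRF4* and *IRF8* had peaks.

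*IRF4* (ENSG00000137265, chr6:391739-411443, plus strand) had its strongest peaks far downstream of the gene. The region 55.2 kb downstream of the TSS (chr6:446743-447181) had no NS DMSO peak and a fold enrichment of 6.23, 4.63 and 6.82 in the lists labelled SW DMSO, NS rottlerin and SW rottlerin. These values stood at percentiles 95, 68.7 and 96.7 of all peaks of their own list, so the region was among the strongest peaks in the lists labelled SW and above the middle in the list labelled NS rottlerin. Among the 2883 regions with a peak in every list but NS DMSO it ranked 64th, 660th and 86th by fold enrichment. The region was chosen for this pattern, and the ranks describe it without testing it. Its peaks were 439, 178 and 422 bp wide and shared 178 bp (chr6:446900-447077), so that the narrowest peak lay wholly inside both others and the shared stretch held the AP1 and the NFκB match shown above. It lies within 10 kb before the start of a long non-coding RNA gene, ENSG00000286364.

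A neighbouring region 53.4 kb downstream (chr6:444986-445228), 1514 bp from the former, carried the nearest NS DMSO peak. It had a fold enrichment of 3.86 in the list labelled NS DMSO, 3.82 in SW DMSO and 4.24 in SW rottlerin, and no peak in NS rottlerin. The 3 values lay near the medians of their lists and differed from each other by less than those of the region beside it. The adjacent regions thus had opposite entries in the lists labelled NS DMSO and NS rottlerin.

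**Figure D3:**
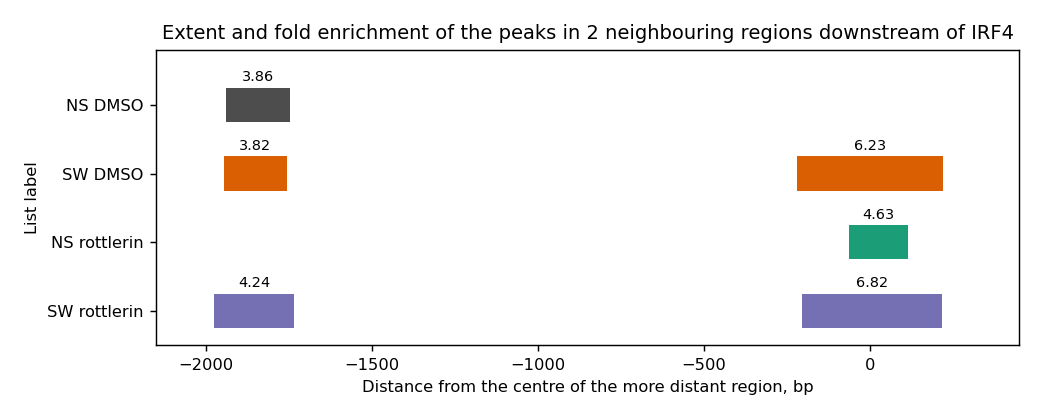
Extent of the peaks in the regions 53.4 and 55.2 kb downstream of *IRF4* in each list (rows), as the distance from the centre of the latter in bp (horizontal axis), with the fold enrichment over total input above each peak. The left region has peaks in every list but NS rottlerin (3.82 to 4.24), and the right region in every list but NS DMSO (4.63 to 6.82).

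Within the *IRF4* gene body, the region 13.4 kb downstream of the TSS (chr6:404896-405340), whose mid-point lies in an exon, had no NS DMSO peak and a fold enrichment of 2.94, 2.74 and 4.55 in the other lists. The first 2 values stood at percentiles 5.14 and 1.92 of their lists, close to the weakest peaks called, and the third at percentile 67.4. Only 94 bp were common to the 3 peaks. When every list was limited to the same number of peaks, this region had a peak in the list labelled SW rottlerin alone, whereas the one 55.2 kb downstream still had a peak in every list but NS DMSO. A further intronic region, 633 bp before it, 12.3 kb downstream of the TSS, was called in the list labelled SW rottlerin alone, at 4.86.

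The only region of the 4 genes with a peak in the NS DMSO list alone also belonged to *IRF4*. It lay 52.1 kb upstream, in an intron of *DUSP22* (chr6:339530-339751), and had a fold enrichment of 3.15, at percentile 10.5 of the NS DMSO list. Its central 300 bp held an ISRE and a GAS. The other *IRF4* regions were 2 more in *DUSP22*, 53.7 and 54.9 kb upstream, at 2.84 to 3.23, and 2 in intergenic sequence 38 and 40.5 kb downstream, at 3.15 to 3.54. None of these 4 had an NS DMSO peak, and each had a peak in 1 or 2 of the other lists.

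The *IRF4* promoter itself had no peak in any list, although its sequence is rich in GC and CpG. The 300 bases around the RefSeq start (250 before and 50 after, GRCh38.p14 table) had a GC content of 74% and 32 CpG, against medians of 58.7% and 14 over 35116 RefSeq promoters. None of the motifs sought was matched in the 250 bases before the start. The 250 bases before the start are shown because this window, unlike those of *IRF1* and *IRF2*, lacked a peak, and they match GRCh37 at chr6:391502-391751 on the plus strand.
IRF4 promoter: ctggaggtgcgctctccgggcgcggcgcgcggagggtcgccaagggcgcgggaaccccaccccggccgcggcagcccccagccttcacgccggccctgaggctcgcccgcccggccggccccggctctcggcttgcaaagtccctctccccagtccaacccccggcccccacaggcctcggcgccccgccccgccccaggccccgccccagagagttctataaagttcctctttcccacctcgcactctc

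*IRF1* (ENSG00000125347, minus strand) has in GENCODE a gene model of 68.3 kb, chr5:131776132-131844411, which begins 17.9 kb before the main transcript, and distances here are from the start of the main transcript at 131826465. The region that holds this start (chr5:131826429-131826712) had a fold enrichment of 4.73, 6.36, 5.35 and 5.65, at percentiles 73, 95.9, 84.4 and 88.3 of the lists. It was lowest in the list labelled NS DMSO on both scales, though with 1 library each the size of this difference cannot be set against an error. The 4 peaks had nearly the same extent, with 208 bp in common of widths from 237 to 284 bp. The GAS printed above lies inside that stretch, 11 bp from the centre of the region.

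The *IRF1* region 5.4 kb upstream of this start (chr5:131831439-131832295), within the long gene model, had no NS DMSO peak and fold enrichments of 3.57, 3.66 and 3.49. Its values were alike, yet its peaks were 267, 857 and 655 bp wide, so that the lists differed in how far the peak reached rather than in its mean enrichment. The region 17.6 kb downstream (chr5:131808731-131809050), in an intron, had no NS DMSO peak and fold enrichments of 3.40, 4.85 and 4.21, at percentiles 21.4, 74.6 and 56.6. An intronic region 34.1 kb downstream (chr5:131792199-131792449) had a peak in all 4 lists, at 4.32, 4.24, 4.95 and 4.37, and held an ISRE.

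In the remaining 6 *IRF1* regions the fold enrichment ranged from 2.77 to 4.91. One of these, 23.8 kb downstream, was widest in the list labelled NS DMSO, where its peak covered 1244 bp against 662 bp in NS rottlerin and 180 bp in SW rottlerin, at 3.60, 3.45 and 2.77. Here, unlike 5.4 kb upstream, the list labelled NS DMSO had a peak, and it was the widest and the highest. For 7 *IRF1* regions the nearest protein-coding TSS was that of another gene. Those 23.8, 26.1, 34.1 and 53 kb downstream lie nearest to the TSS of ENSG00000283782. The 3 regions farthest upstream lie nearest to *IL5* or *RAD50*. The one 38.7 kb upstream is closest to *IL5*, a cytokine gene of type 2 helper T cells, and had peaks in the lists labelled NS rottlerin and SW rottlerin (3.62 and 3.38). The others lie at the TSS and in an intron of *RAD50*, a DNA repair gene, and the one at the *RAD50* TSS had peaks of 3.14, 3.08 and 3.23 in every list but NS rottlerin.

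*IRF2* (ENSG00000168310, chr4:185306856-185395712, minus strand) had the highest fold enrichment of the 4 genes. The region over its TSS (chr4:185395619-185396440) had 6.39, 6.90, 7.52 and 6.71, at percentiles 95.7, 98.1, 98.9 and 96.3 of the lists, and its mid-point lies in an exon of the divergent transcript *IRF2-DT*. The peaks were 333, 364, 366 and 822 bp wide with 317 bp in common, so the list labelled SW rottlerin had the widest peak without the highest value. The ISRE and the ETS-IRF composite shown above lie within the common stretch, upstream of the *IRF2* start.

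A pair of regions about 60 kb upstream, in introns of the non-coding gene *LINC02427*, also had peaks in all 4 lists. The nearer, 60.2 kb upstream (chr4:185455725-185456142), had 3.59, 3.41, 4.78 and 3.57 and held an ISRE, and the farther, 62.8 kb upstream (chr4:185458040-185458879), had 5.42, 5.52, 5.16 and 5.67. Within the *IRF2* gene body, 3 intronic regions had no NS DMSO peak. The region 56.7 kb downstream had 4.70 and 4.11 in the lists labelled NS rottlerin and SW rottlerin, and those 20.9 and 64.5 kb downstream had 1 peak each, at 3.76 and 2.85. *IRF2* thus had 3 regions in all 4 lists and 3 without an NS DMSO peak, and none with a peak in every other list.

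*IRF8* (ENSG00000140968, chr16:85932722-85956212, plus strand) had the fewest and weakest peaks, and none of its 4 regions lay in the gene body. Its highest fold enrichment was 3.90, at percentile 42.5 of the list labelled NS rottlerin, in a region 7.68 kb upstream of the TSS (chr16:85924990-85925186). That region had a peak in this list alone and held AP1, NFAT, GATA and E-box matches. Regions 10.2 and 54.1 kb upstream were called in the list labelled SW rottlerin alone, at 3.28 and 3.74. The only *IRF8* region in more than 1 list, 37.2 kb downstream (chr16:85969588-85970372), had 2.57 in SW DMSO and 2.99 in SW rottlerin, at percentiles 0.452 and 6.76, and these peaks shared 53 bp. All 5 *IRF8* values lay under the median of their own list.

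**Figure D4:**
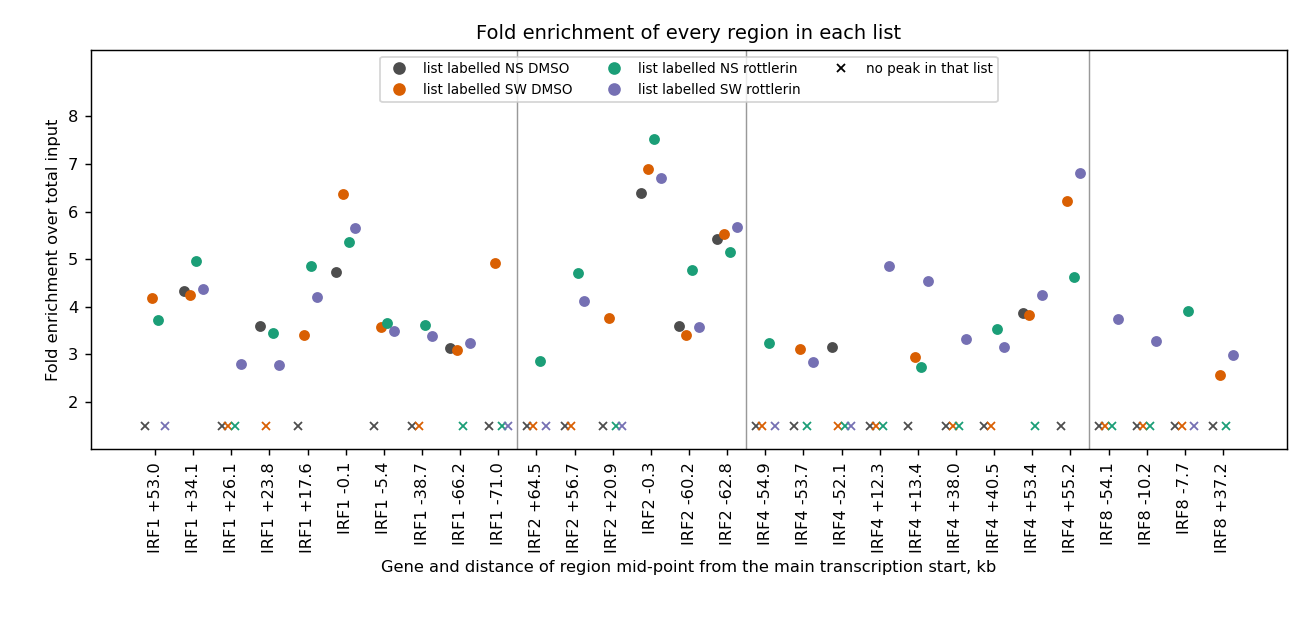
Fold enrichment over total input (vertical axis) of each of the 29 regions in each list, ordered by gene and position, with crosses at the foot for lists without a peak. *IRF2* at its TSS (6.39 to 7.52) and *IRF4* 55.2 kb downstream (4.63 to 6.82, without NS DMSO) hold the highest values, and the *IRF8* values lie between 2.57 and 3.90.

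The highest fold enrichment of a region in any list had a median of 3.33 in the 11 regions with a peak in 1 list, 3.58 in 6 regions with 2, 4.24 in 7 regions with 3 and 5.67 in 5 regions with 4. Over all regions the medians were 3.54, 4.06, 4.46 and 5.21. A maximum over more lists is higher in part by construction, so only the medians of the same number of lists can be set side by side. Single-list regions made up 37.9% of those at the IRF genes and 38.8% of all regions.

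Sites for the IRF proteins themselves were found at *IRF1*, *IRF2* and *IRF4*. An ISRE stood in the central 300 bp of 4 regions (13.8%, beside 5.67% of all regions), at the *IRF2* TSS, 60.2 kb upstream of *IRF2*, 34.1 kb downstream of *IRF1* and 52.1 kb upstream of *IRF4*. All 4 of these regions had an NS DMSO peak, and 3 had a peak in every list. The ETS-IRF composite stood in 2 regions (6.9%, beside 3.69%), both at *IRF2*, and an AP1 site beside a half-site in none, where 1.06% of all regions hold one. In the central 500 bp these numbers were 4 and 1, and the shares over all regions were not computed for that window. A GAS stood in 7 regions (24.1%, beside 9.53%), 3 of them at *IRF1*, 2 at *IRF2* and 2 at *IRF4*. These counts rest on few regions and are a description.

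Of the motifs of factors that T cell activation induces, AP1 stood in 3 regions (10.3%, beside 13.2% of all regions), NFAT in 11 (37.9%, beside 29.3%) and NFκB in 3 (10.3%, beside 6.6%). When the central 500 bp or the whole region was searched, AP1 was matched in 6 regions and NFκB in 6, each counted on its own. The shares over all regions hold for the central 300 bp and were not computed for these searches. Among the 4 regions with a peak in every list but NS DMSO, the E-box stood in 3, NFκB in 2, both at *IRF4*, and ETS in 2. AP1, NFAT, GAS and GATA stood in 1 each, and neither an ISRE nor a RUNX match was found. Of the lineage factors of T cells, ETS was matched in 13 regions (44.8%, beside 44.8%), RUNX in 9 (31%, beside 32.8%), GATA in 7 (24.1%, beside 31.5%) and the E-box in 6 (20.7%, beside 21.4%). GATA was matched in 11 regions when the whole region was searched, again without a share over all regions. The median GC content of the central 300 bp was 50% at the IRF genes and 46.3% over all regions, and the part of this in the motif shares was not tested.

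The other genes of the pathway were read with the same rules, and the counts below stand beside the 31.8% of protein-coding genes with a TSS peak in all 4 lists and the 52.7% with none. Of other family members, *IRF3* (4.24, 5.51, 4.17 and 5.02) and *IRF9*, the DNA-binding subunit of the interferon-activated complex ISGF3 (3.09, 3.35, 3.70 and 3.89), had TSS peaks in all 4 lists. *IRF7*, which drives type I interferon genes, had one in the list labelled SW rottlerin alone (3.58), and *IRF5* had none. All 3 genes of the IRF2BP co-factors of IRF2 had TSS peaks in all 4 lists. Among 10 DNA partners of IRF4 and IRF8, the genes of the AP1 subunits JUN, JUNB and JUND had TSS peaks in all 4 lists, *SPI1*, *SPIB*, *BATF2* and *BATF3* had none, and *BATF* had peaks in the lists labelled NS rottlerin and SW rottlerin (3.18 and 3.69). The lymphoid factor genes *IKZF1* (2.88) and *IKZF3* (3.99) had one in the list labelled SW rottlerin alone.

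Of 9 interferon signalling genes, 6 had a TSS peak in all 4 lists, with the highest at *STAT2* (7.02, 7.38, 8.42 and 8.77), and *IFNGR2* had none. Of 12 interferon-inducible targets, 4 had a TSS peak in all 4 lists, a share near the 31.8% of all protein-coding genes, namely *ISG15*, *B2M*, and *TAP1* and *PSMB9*, which share a promoter region. *IFIT2* had peaks in 2 lists, and the other 7, among them *MX1*, *OAS1* and *CXCL10*, had none. A region with a peak in every list but NS DMSO stood in the windows of 23.4% of protein-coding genes. Such a region was found for *IRF1* and *IRF4* of the 4 genes, and also for *IRF7*, 2 of 3 IRF2BP genes, 5 of 10 DNA partners, 4 of 9 signalling genes and 8 of 12 targets. Windows of neighbouring genes overlap, as at *IFIT1*, *IFIT2* and *IFIT3*, so these counts share regions.

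The genes most like *IRF4* in how their regions were spread over the 15 possible patterns of presence in the 4 lists, among 8863 protein-coding genes with at least 5 regions, were *FMNL2*, *MEF2A* and *ATP1B3*. The cosine similarity was 0.925, 0.920 and 0.906, over 7, 7 and 6 regions. Of these, 6, 6 and 4 had no NS DMSO peak, against 7 of 9 at *IRF4*.

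At the limit of the rule, the outermost regions inside had their nearer edge 70.8 kb from the gene start at *IRF1*, 64.4 kb at *IRF2*, 55 kb at *IRF4* and 53.9 kb at *IRF8*. The first regions outside lay 81.1, 100.4, 78.3 and 99.4 kb away. The one at *IRF8* (chr16:85833092-85833354) had peaks in all 4 lists, at 5.09, 4.61, 5.46 and 5.46, higher than any region inside its window, and the one at *IRF4* (chr6:313268-313485) had peaks of 4.28 and 3.26 in the lists labelled NS DMSO and SW rottlerin.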

How the data were processed

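According to the study's methods and the submitters' processing notes, the authors used CutAdapt for adapter trimming, Bowtie2 for alignment to Hg19, Picard to drop duplicates and MACS2 for broad peaks against total input, with versions not given in the sources used here. The deposited lists give, per peak, a score (the −log10 q-value times 10, truncated), a ratio (fold enrichment over total input), and −log10 values of p and q. The lists do not hold read depth, and no intervals are given.

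Peaks on the autosomes, X and Y that overlapped by 1 bp or touched were joined. A region took the highest fold enrichment of a list's peaks in it, and no region at these genes held more than 1 peak of a list. Genes came from GENCODE release 44 on GRCh37, and the TSS of the window rule is the gene start. Percentiles are within a list. Mid-points were placed in 5′UTR, 3′UTR, exon, intron, promoter (up to 1 kb before a TSS), upstream (up to 10 kb) or intergenic sequence, in this order. No mid-point at these genes fell to the 3′UTR or promoter group. Motifs were sought in the central 300 bp on both strands. RefSeq promoters were matched for *IRF1*, *IRF4* and *IRF8*, where the *IRF8* starts lie 3668 and 3853 bp from the main TSS and are not shown, and *IRF2* was not matched. Regions at the TSS, those with a peak in every list but NS DMSO, those in NS DMSO alone and the highest of each gene were to be named in full, and others by counts and ranges. Of the latter, those given with values were singled out after their values were seen. Results for some genes of the lists are not reported here. The members and gene lists were chosen with earlier results of these data known. Merging, windows and motif searches were tested on simulated data. Alternatives covered joining, window, q-value and list length. Scripts ran under Python 3.11.15 with numpy 2.4.6, pysam 0.24.0, matplotlib 3.10.9 and samtools 1.23.1.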

Additional observations from a re-analysis of the deposited data

Results flagged for a closer look

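An *IRF1* region 53 kb downstream of the main start (chr5:131773337-131773580), in an intron of *IRF1-AS1*, had a peak in the list labelled SW DMSO (4.19) and in that labelled NS rottlerin (3.71) and none in those labelled NS DMSO and SW rottlerin. By the labels alone, its NS and SW entries were opposite after DMSO and after rottlerin, but no direction is drawn from this. Each entry is 1 library, the difference was not tested, and the labels of 3 of the lists are in doubt. Of the 29 regions 1 (3.45%) had such opposite entries, beside 971 of 40703 regions (2.39%).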

How the results depend on the processing

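Keeping touching peaks apart, joining peaks within 100 bp, using mid-points and a q-value of at most 0.05 left every count of regions as reported. The methods of the study give the same q-value limit for peak calling, so that setting is no independent check. Any transcript start, the main transcript start and 100 kb moved no count by over 1.5 times. With 50 kb there were 19 regions, 3 in all 4 lists, 3 in every list but NS DMSO, and 4 at *IRF4* without an NS DMSO peak. The *IRF4* region 55.2 kb downstream lies outside that window. The higher-scoring 50% of each list gave 11 regions, of which 3 had a peak in all 4 lists. Of the 11, 6 had no NS DMSO peak (54.5%, beside 52.1% of all regions in this setting), 3 of them at *IRF4*. A peak in every list but NS DMSO was found in 1 (9.09%, beside 6.91%). Lists of equal length gave 12 regions without an NS DMSO peak, 4 of them at *IRF4*, and 2 in every other list. Both of these settings hold fewer peaks by construction.

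Leaving out each list in turn, chosen after seeing the data like the main transcript start, gave 24 to 28 regions in all, 15 to 18 without an NS DMSO peak (5 to 7 at *IRF4*), 5 to 7 in every remaining list but NS DMSO, and 5 to 9 in every remaining list. The 7 came without the list labelled SW DMSO and the 9 without NS DMSO, and without NS DMSO the counts that need it could not be had. The width-weighted fold enrichment had the same median, 3.79, by construction. No region at these genes held more than 1 peak of a list, so this setting could not differ. Regions with an ISRE, ETS-IRF, AP1-IRF or GAS match numbered 10, against 15 in the central 500 bp and 10 in whole regions. Of 22 counts of single motifs under these windows, 7 moved by over 1.5 times. No paired analysis was possible because there is a single library of every state.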
